A study of Rana pirica with 14 samples.

Results

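The Notch pathway and its partner basic helix-loop-helix (bHLH) factors were followed in the tail of Rana pirica tadpoles, a Japanese brown frog, whose RNA was hybridized to an array designed for Xenopus laevis. Members were the probe sets that carried a single annotated symbol of the hes, hey, notch, delta, jagged, lfng, rbpj, numb, mesp, ripply, tcf3, tcf4, tcf12, tcf15, ascl, neurog, neurod, atoh, twist, hand or tal1 families. In all, 61 of the 15491 probe sets tested fitted, out of 9304 with 1 symbol. They read 42 symbols of 33 genes, where .L and .S name the 2 copies of a gene that Xenopus laevis carries, and probe sets of 1 symbol are told apart here by the ending of their array ID (A1_at, S1_at and so on). Below, a copy always means one of Xenopus laevis, and whether Rana pirica carries 2 copies of these genes was not tested. By role, 3 members read ligands, 2 a receptor and its modifier, 3 the effector rbpj, 25 Hes and Hey repressors, 4 segment boundary factors, 9 E proteins, 10 proneural factors, and 5 factors of mesoderm and blood. Among the probe sets with 1 symbol used here, none carried numb, a twist gene, tcf15 or a Notch receptor other than notch1.

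Notch is a receptor on the cell surface that is activated by Delta and Jagged ligands on neighbouring cells, upon which its intracellular part is cut free and joins the DNA-binding protein Rbpj in the nucleus. Among the best known targets are the Hes and Hey genes, whose products are bHLH repressors and hold back proneural bHLH factors, which pair with E proteins on DNA. In the tail bud of vertebrate embryos the same pathway drives the segmentation clock, in which Hes genes, lfng, mesp and ripply genes set the boundaries of somites, and in frog tadpoles Notch signalling is known from tail regeneration.

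Tail tissue was collected on day 8 from tadpoles that had not yet grown hind limbs, in 5 groups. Cont tadpoles had no predator (n = 2 arrays), Drago tadpoles were kept with a dragonfly larva for 8 days (n = 3), and Salam tadpoles with larval salamanders for 8 days (n = 3). In −Drago and −Salam (n = 3 each), the same predators were taken away after 4 days and the tadpoles lived without them for the other 4 days. The authors dropped a further control array, their control 1, because its hybridization failed. How their numbering maps to Cont 1 and Cont 2 is not stated. The dragonfly larva was caged and the salamanders were not, so that the kind of predator and contact with it cannot be told apart. Arrays of 1 group are biological replicates by the labels, whereas the methods state that tissue of all tadpoles of a treatment was combined, so whether a group's arrays share 1 pool is not settled and p-values reflect nothing beyond the spread between arrays.

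The measure is the deposited log2 signal of a probe set minus its median over the 14 arrays, so that 0 is the middle array, and 2 probe sets cannot be ranked by their levels. A difference between groups is the difference of their mean log2 values, and a call required an adjusted p (limma, Benjamini-Hochberg over all probe sets tested) under 0.05. The signal level is not in these values, so the tissue markers could not be checked as present or absent, and the match of a probe set to transcripts of Rana pirica was not tested. Over all probe sets tested, arrays of the same group correlated with a median r of 0.0020 (-0.019 to 0.0100, 13 pairs), and arrays of different groups with -0.0076 (-0.027 to 0.013, 78 pairs). Dap, a poly-A control transcript added before labelling, was high on Cont 1, Drago 1 and 2, Salam 1 and 2 and −Salam 1 and low on the other 8 arrays, among them all 3 of −Drago, and its part in the results was tested only as a block in the fit.

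No member was called by limma in any of the 8 comparisons or in the F test over the 5 groups. The smallest adjusted p among the members was 0.641 in −Salam against Cont, and over all probe sets limma called only 1 (0.00646% in Drago against Salam), and it is no member. At an unadjusted p under 0.05 the members counted 3 for each of the exposed groups against Cont, where the shares over all probe sets were, for Drago, Salam, −Drago and −Salam, 5.65%, 5.0%, 4.94% and 5.69%. The count was 3 in Drago against −Drago (5.74% of all probe sets), 2 in Salam against −Salam (5.49%), 2 in Drago against Salam (5.71%), 1 in −Drago against −Salam (5.4%) and 1 in the F test (5.86%). These shares are near the background, so the values below describe single members and carry no statement on the pathway as a group.

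A difference of over 5 fold from Cont, the size on which the methods screen, is 2.32 on the log2 scale. In Drago it was passed by 1 member, mespa.L (2.03% of all probe sets passed), and in Salam by 3, tcf12.L, hes5.5.S and tal1.S (1.93%). In −Drago hes1.L passed (1.68%), and in −Salam tal1.S (2.01%). The 4 comparisons share the 2 Cont arrays. All arrays of Drago lay on one side of both Cont arrays for 10 members (19.8% of all probe sets), those of Salam for 12 (20.1%), those of −Drago for 5 (20.5%) and those of −Salam for 14 (20%). Between groups of 3 the arrays did not overlap for 6 members in Drago against −Drago (10.6%), 4 in Salam against −Salam (10.1%), 5 in Drago against Salam (10.3%) and 4 in −Drago against −Salam (10.4%). The median difference of the 61 members from Cont was -0.21 for Drago, -0.21 for Salam, -0.087 for −Drago and -0.13 for −Salam. Over all probe sets it was -0.014, -0.016, -0.0042 and -0.011 in the same order. The difference between members and all probe sets was not tested.

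**Figure D1:**
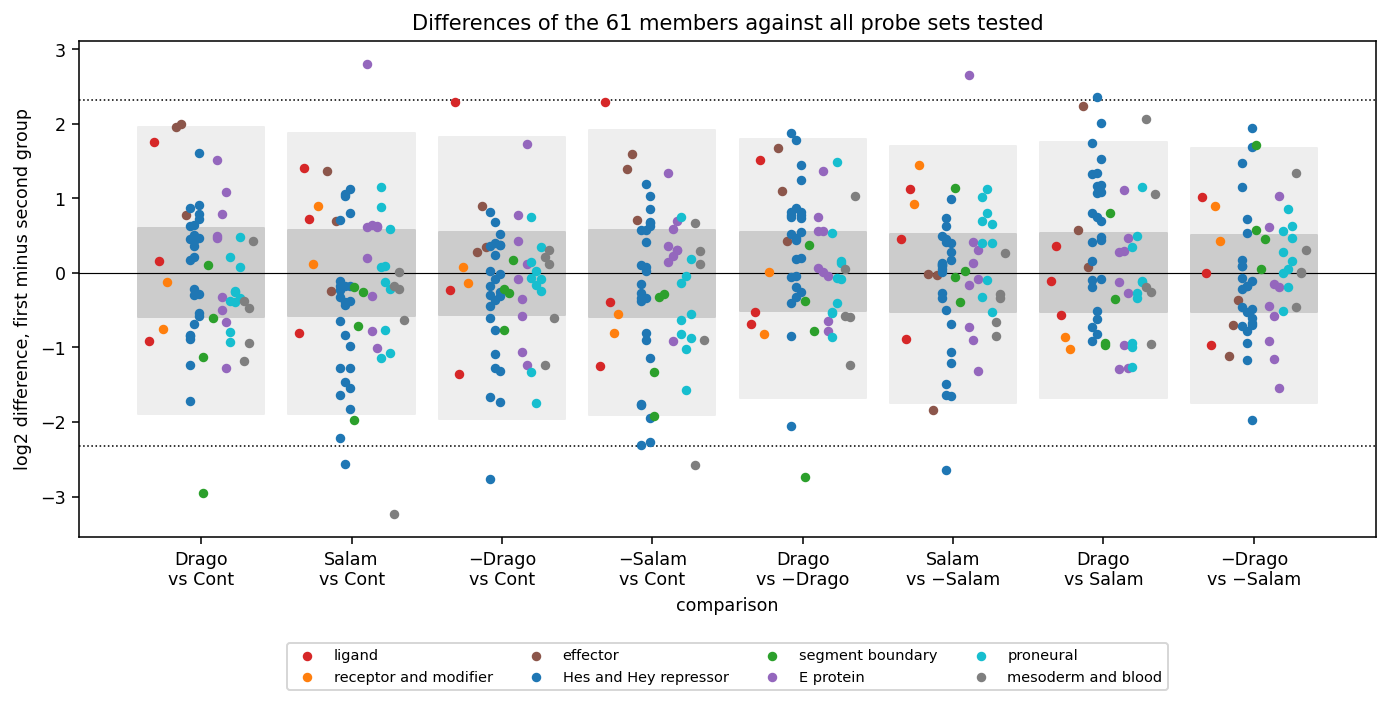
Log2 differences (vertical axis, first minus second group) of the 61 members in the 8 comparisons (horizontal axis), coloured by role. The dark and the light band hold the middle 50% and 95% of all 15491 probe sets, dotted lines mark 5 fold, and most members lie inside the light bands.

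Among the ligands, dll1.L had the lowest p of all members in the F test (adjusted p = 0.814). It reads delta-like 1, the Delta ligand that keeps neighbouring cells from taking the same neural fate and is also made in the presomitic mesoderm. On the centred log2 scale it stood at -1.42 and -2.41 in Cont, 0.13, 0.16 and -0.75 in Drago, 0.047, -0.047 and -1.53 in Salam, 0.54, 0.71 and -0.12 in −Drago, and 0.95, -0.28 and 0.45 in −Salam. The 2 Cont arrays were the lowest but for Salam 3, which lay between them, and the other 11 arrays lay above both. The difference from Cont was 1.76 ± 0.67 (SE) in Drago (adjusted p = 0.829) and 1.41 ± 0.67 in Salam (adjusted p = 0.98). After removal of the predator it was 2.29 ± 0.67 in −Drago (adjusted p = 0.953) and 2.29 ± 0.67 in −Salam (adjusted p = 0.641), a fold of 4.9 and 4.89. Such a position, with at least 11 of the 12 arrays of exposed tadpoles above both Cont arrays, was held by 2 members (dll1.L and a probe set of tcf4.S) and by 3.41% of all probe sets, and the mirror image, below both, by 1 member, hes1.L, and by 3.25%. In bulk tail tissue, fewer cells of a type and less RNA per cell cannot be told apart.

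The other ligands had no unadjusted p under 0.05 in any comparison. For dlc.L, which is named after the zebrafish gene deltaC and reads a Delta ligand of the presomitic mesoderm, the arrays stood at 0.79 and 0.17 in Cont, 0.60, -0.61 and -1.3 in Drago, -1.74, 0.53 and 0.23 in Salam, 0.38, 0.74 and -0.38 in −Drago, and -0.17, -1.74 and -0.41 in −Salam, and all 3 −Salam arrays lay below both Cont arrays. For jag1.L, which reads Jagged 1, a ligand known from vessels and the inner ear, they stood at -0.19 and 0.19 in Cont, 0.99, 0.96 and -1.49 in Drago, 1.28, -0.19 and 1.06 in Salam, -2.67, 0.43 and -1.84 in −Drago, and -0.41, 1.06 and -1.85 in −Salam. The arrays of Drago, −Drago and −Salam lay on both sides of the Cont arrays for jag1.L, and −Drago 1 held the lowest value, -2.67.

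The receptor notch1.S had its 2 highest values on Salam arrays. It stood at 1.05 and -0.31 in Cont, 1.48, -0.44 and -0.30 in Drago, 1.99, -0.38 and 2.19 in Salam, -0.28, 0.39 and 0.61 in −Drago, and -0.54, -0.28 and 0.28 in −Salam. Salam exceeded −Salam by 1.45 ± 0.75 (adjusted p = 0.943), and the groups overlapped because Salam 2 lay between the arrays of −Salam. Its modifier lfng.S, a sugar transferase of the Golgi that alters which ligands Notch answers to, stood at -1.01 and 1.67 in Cont, -0.62, -1.91 and 1.26 in Drago, 0.15, -0.15 and 1.33 in Salam, 1.53, 0.88 and -1.19 in −Drago, and -0.68, -1.12 and 0.35 in −Salam. The 2 Cont arrays of lfng.S alone spanned most of the range of the 14 arrays, and no group lay apart from them.

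The effector rbpj.S, the DNA-binding partner of the cut receptor, was read by 3 probe sets. In the A1_at probe set it stood at -2.72 and 0.062 in Cont, 0.86, 0.20 and 0.80 in Drago, -0.062, -0.15 and 0.34 in Salam, -1.16, -0.35 and -1.63 in −Drago, and 0.11, -0.47 and 0.56 in −Salam. Drago lay above both Cont arrays and above all of −Drago, with a difference of 1.95 ± 0.75 from Cont (adjusted p = 0.833) and of 1.67 ± 0.67 from −Drago (adjusted p = 0.824). Cont 1 was the lowest of the 14 arrays and Cont 2 lay below Drago 2 by a small step, and without Cont 1 the difference was 0.56. In A1_s_at the 3 Drago arrays were 2.71, 2.04 and -1.29 and the 3 Salam arrays -1.98, 1.07 and -2.36, a difference of 2.24 ± 1.2 between these groups (adjusted p = 0.905), with overlapping arrays. In S1_at Drago stood at 0.40, 0.051 and 0.37 against -0.75 and -0.26 in Cont. The means of the 3 probe sets (A1_at, A1_s_at and S1_at) stood above Cont by 1.95, 2.0 and 0.78 in Drago, by 0.28, 0.90 and 0.35 in −Drago and by 1.39, 1.6 and 0.72 in −Salam, and differed from Cont by 1.37, -0.24 and 0.69 in Salam. These differences share the 2 Cont arrays. Over the 14 arrays the probe sets correlated with one another at 0.20, 0.30 and 0.56.

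**Figure D2:**
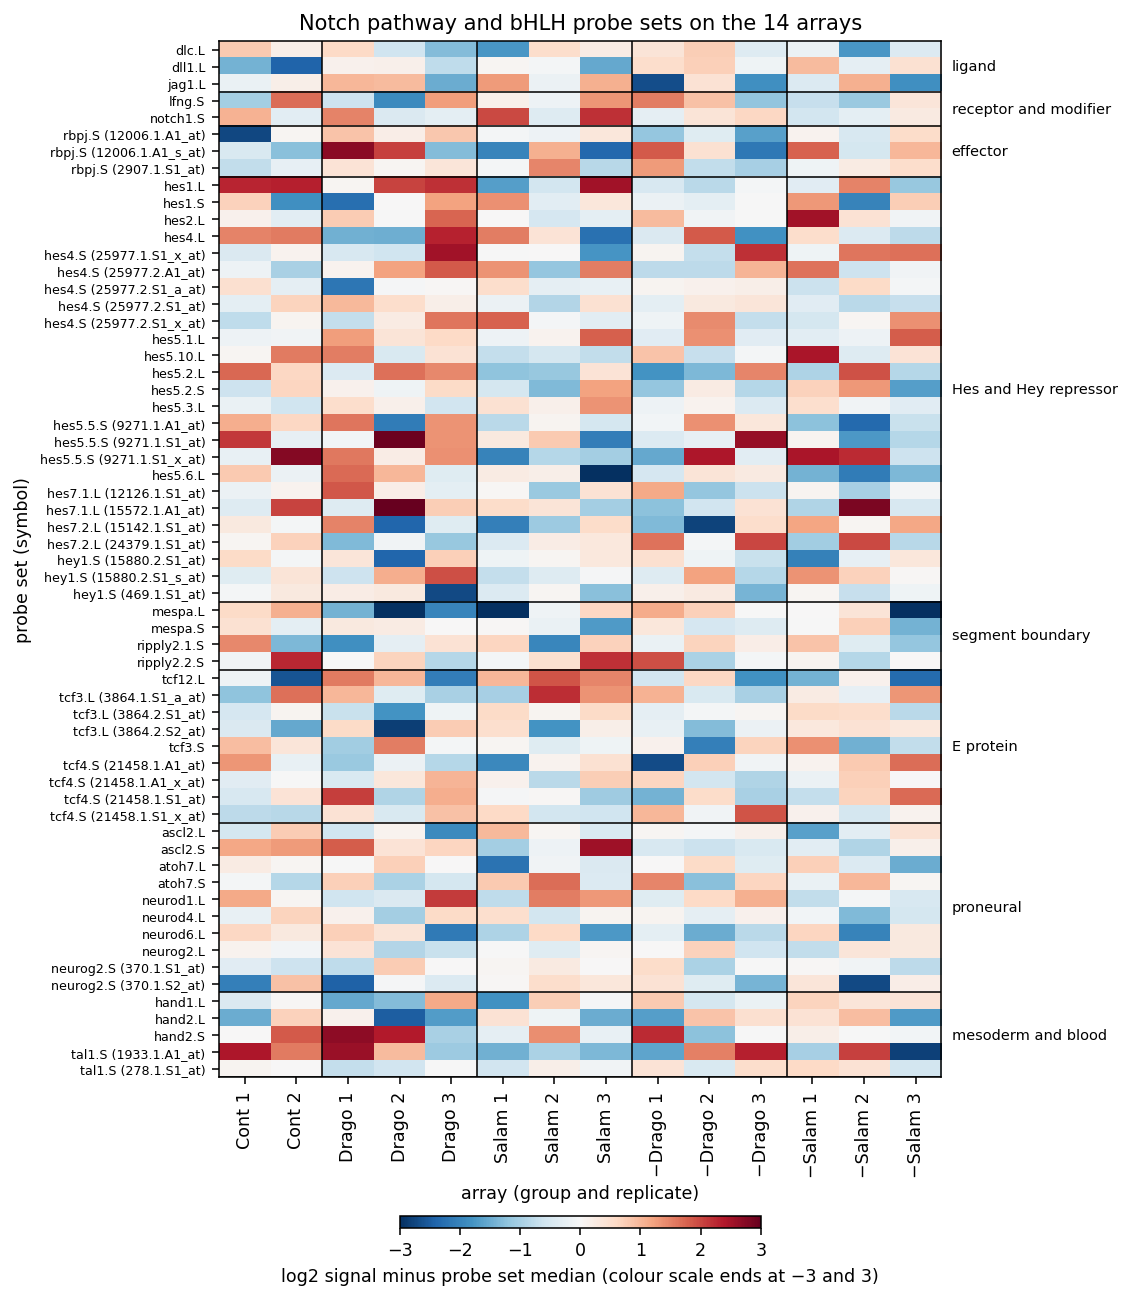
Centred log2 signal (colour, log2 signal minus the probe set's median) of the 61 members (rows, ordered by role) on the 14 arrays (columns, by group and replicate). By eye, columns of the same group share no clear pattern over the members, which was not measured, and probe sets with the same symbol differ.

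Of the Hes repressors, hes1.L held the largest difference of a removal group. Hes1 is a direct Notch target that keeps precursor cells from differentiating, and its level oscillates in mouse cells. It stood at 2.29 and 2.34 in Cont, 0.058, 2.04 and 2.18 in Drago, -1.65, -0.55 and 2.51 in Salam, -0.47, -0.82 and -0.058 in −Drago, and -0.33, 1.49 and -1.14 in −Salam. Both Cont arrays were high, all 3 −Drago and all 3 −Salam arrays lay below them, and Salam 3 alone lay above. The difference from Cont was -2.77 ± 1.08 in −Drago (adjusted p = 0.959), -2.31 ± 1.08 in −Salam (adjusted p = 0.87), -2.21 ± 1.08 in Salam and -0.89 ± 1.08 in Drago. With the dragonfly larva present, Drago exceeded −Drago by 1.88 ± 0.96 (adjusted p = 0.903), and the arrays of the groups did not overlap, Drago 1 being next to −Drago 3. The probe set of the other copy, hes1.S, gave a different picture, with 0.70 and -1.83 in Cont, -2.26, 0.0023 and 1.21 in Drago, 1.37, -0.31 and 0.34 in Salam, -0.18, -0.30 and -0.0023 in −Drago, and 1.3, -2.0 and 0.74 in −Salam, and correlated with hes1.L at -0.20 over the 14 arrays. Its 2 Cont arrays were far apart and no group lay wholly outside them.

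Hes4, known in frogs as hairy2 and needed there for the neural crest and for segmentation, was read by 6 probe sets. For hes4.L the arrays stood at 1.49 and 1.57 in Cont, -1.43, -1.46 and 2.31 in Drago, 1.52, 0.41 and -2.24 in Salam, -0.43, 1.84 and -1.82 in −Drago, and 0.52, -0.41 and -0.79 in −Salam. The 2 Cont arrays were close together, Drago, Salam and −Drago each held arrays on both sides of at least one of them, and all 3 −Salam arrays lay below both. The 5 probe sets of hes4.S ran from -2.16 to 2.52 over single arrays. One of them, A1_at, had all 3 Drago arrays (0.11, 1.21 and 1.84) above Cont (-0.14 and -0.97), a difference of 1.61 ± 0.94 (adjusted p = 0.919). The Drago values of the other 4 were -2.16, -0.029 and 0.029 in S1_a_at, 0.97, 0.53 and 0.17 in S1_at, and -0.48, -0.60 and 2.52 as well as -0.71, 0.26 and 1.61 in a pair that both end in S1_x_at. These values are centred on the median of all arrays, and their differences from Cont are not given here.

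The hes5 cluster, whose frog genes were described as Enhancer of split related and answer directly to Notch in the neural plate and the presomitic mesoderm, was read by 9 probe sets. Among them hes5.10.L stood at 0.051 and 1.55 in Cont, 1.53, -0.45 and 0.43 in Drago, -0.72, -0.54 and -0.74 in Salam, 0.86, -0.69 and -0.051 in −Drago, and 2.46, -0.39 and 0.40 in −Salam. All 3 Salam arrays lay below both Cont arrays and within a narrow band, and the difference was -1.47 ± 0.86 (adjusted p = 0.985), or -0.72 without Cont 2. The difference of Salam from −Salam was -1.49 ± 0.77 (adjusted p = 0.94), the arrays of these groups did not overlap, and without −Salam 1, the highest of the 14 arrays, it was -0.67. The differences of the other groups from Cont were -0.30 in Drago, -0.76 in −Drago and 0.022 in −Salam.

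The 3 probe sets of hes5.5.S differed from one another, and S1_x_at is the one that the study names, as enhancer of split related 10. In S1_x_at the arrays stood at -0.21 and 2.76 in Cont, 1.59, 0.21 and 1.37 in Drago, -2.01, -0.86 and -1.02 in Salam, -1.55, 2.42 and -0.31 in −Drago, and 2.44, 2.23 and -0.62 in −Salam. Salam was low on all 3 arrays and lay apart from both Cont and Drago, with differences of -2.57 ± 1.19 from Cont (adjusted p = 0.98), -2.65 ± 1.06 from −Salam (adjusted p = 0.893) and, as Drago minus Salam, 2.36 ± 1.06 (adjusted p = 0.865). Without Cont 2 the difference of Salam from Cont was -1.08. The step from continued exposure to removal differed between the predators by 3.52 ± 1.5 (Drago minus −Drago, less Salam minus −Salam, adjusted p = 0.877), the only member with an unadjusted p under 0.05 there (5.55% of all probe sets). In A1_at it was −Salam that stood low, at -1.22, -2.34 and -0.66, against 1.1 and 0.61 in Cont and -0.08, 1.37 and 0.33 in −Drago. Those differences were -2.26 ± 0.95 from Cont (adjusted p = 0.87) and, as −Drago minus −Salam, 1.95 ± 0.85 (adjusted p = 0.902). In S1_at single arrays ran from -2.08 to 2.95 with no group apart from Cont, whose arrays stood at 2.13 and -0.24. The letter x in the first ending marks probes that can also match other transcripts.

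A further member, hes5.6.L, stood at 0.79 and -0.16 in Cont, 1.71, 1.01 and -0.36 in Drago, 0.24, 0.16 and -4.1 in Salam, -0.49, 0.39 and 0.26 in −Drago, and -1.43, -2.1 and -1.36 in −Salam. The 3 −Salam arrays lay below all arrays of −Drago, with a difference of 1.68 ± 0.96 as −Drago minus −Salam (adjusted p = 0.958), and Salam 3, at -4.1, was the lowest value of any member on any array. Drago exceeded Salam by 2.01 ± 0.96 (adjusted p = 0.872), a difference that was 0.58 without Salam 3, and the other 2 Salam arrays lay inside the range of Drago. The probe sets of hes5.1.L, hes5.2.L, hes5.2.S and hes5.3.L ran from -1.79 to 1.9, and none had an unadjusted p under 0.05 in any comparison. For hes5.1.L the 3 Drago arrays (1.25, 0.40 and 0.59) lay above both Cont arrays (-0.14 and -0.11).

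The hes7 genes, whose counterpart in the mouse is a core oscillator of the segmentation clock, were read by 4 probe sets. One of the 2 probe sets of hes7.2.L stood at 0.051 and 0.70 in Cont, -1.33, -0.12 and -1.13 in Drago, -0.40, 0.23 and 0.32 in Salam, 1.62, -0.051 and 1.99 in −Drago, and -1.04, 1.98 and -0.83 in −Salam. All 3 Drago arrays lay below all 3 −Drago arrays, with a difference of -2.05 ± 0.79 (adjusted p = 0.822). The other probe set of this gene stood at 1.49, -2.38 and -0.36 in Drago and -1.32, -2.78 and 0.53 in −Drago, which overlapped. In it −Drago averaged below −Salam (1.17, 0.049 and 1.15) with overlapping arrays, a difference of -1.98 ± 0.99 (adjusted p = 0.941), and the 2 sets correlated at -0.15. For hes7.1.L the 2 probe sets ran from -1.17 to 1.87 and from -1.23 to 3.62, the latter with its highest value on Drago 2, and correlated at -0.28. The probe set of hes2.L ran from -0.50 to 2.52, and the 3 probe sets of hey1.S, a Notch target of vessels and somites, from -2.71 to 1.93. Of these 8 members only the first probe set of hes7.2.L had an unadjusted p under 0.05 in any comparison.

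**Figure D3:**
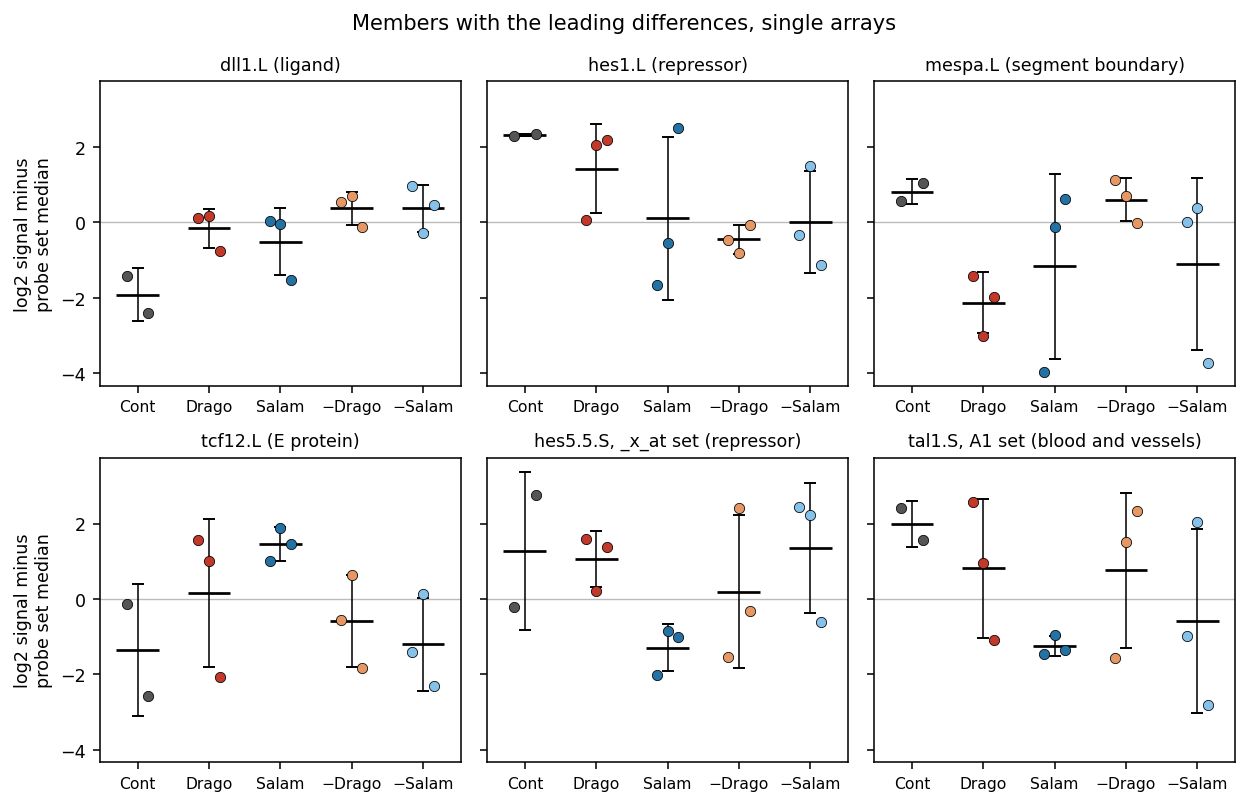
Centred log2 signal (vertical axis, log2 signal minus the probe set median) by group (horizontal axis) for 6 members with leading differences. Points are single arrays, horizontal bars group means and error bars 1 SD (n = 2 for Cont, 3 for the other groups). Cont is low for dll1.L and high for hes1.L, Drago is low for mespa.L, and Salam is high for tcf12.L and low for the other 2 probe sets.

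Of the segment boundary factors, mespa.L stood furthest from Cont in Drago. Mespa, described in frogs as thylacine, is a bHLH factor that marks the next somite in the anterior presomitic mesoderm. The arrays stood at 0.57 and 1.06 in Cont, -1.42, -3.0 and -1.97 in Drago, -3.96, -0.14 and 0.61 in Salam, 1.12, 0.71 and -0.02 in −Drago, and 0.02, 0.39 and -3.73 in −Salam. All 3 Drago arrays lay below both Cont arrays and below all −Drago arrays, with differences of -2.95 ± 1.28 from Cont (adjusted p = 0.85, a fold of 7.71) and -2.74 ± 1.15 from −Drago (adjusted p = 0.836). The mean of −Drago differed from that of Cont by -0.21, that of Salam by -1.98 and that of −Salam by -1.92. Salam 1 and −Salam 3 were lower still than any Drago array, while the other arrays of their groups lay nearer to 0. Without Salam 1 the difference of Salam was -0.58, and without −Salam 3 that of −Salam was -0.61. All 3 −Salam arrays lay below both Cont arrays. The probe set of the other copy, mespa.S, had its Drago arrays at 0.29, 0.25 and 0.016 and its Cont arrays at 0.47 and -0.30, and correlated with mespa.L at 0.094. Ripply2 genes, which shut off mesp activity at the boundary, were read by ripply2.1.S (-1.96 to 1.45) and ripply2.2.S (-0.95 to 2.25). Their Cont arrays stood at 1.45 and -1.34 and at -0.11 and 2.25, so that no group lay outside Cont for either.

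E proteins pair with tissue-specific bHLH factors, and tcf12.L, which reads the E protein HEB and is named by the study, had the largest positive difference of all members from Cont. It stood at -0.12 and -2.58 in Cont, 1.57, 0.99 and -2.07 in Drago, 1.0, 1.89 and 1.47 in Salam, -0.55, 0.63 and -1.82 in −Drago, and -1.41, 0.12 and -2.31 in −Salam. All 3 Salam arrays were high and lay above both Cont arrays and all −Salam arrays, with differences of 2.8 ± 1.11 from Cont (adjusted p = 0.912, a fold of 6.99) and 2.65 ± 0.99 from −Salam (adjusted p = 0.888). The Cont arrays were far apart, Drago 3 lay near the lower of them, and without Cont 2 the difference of Salam from Cont was 1.57. The difference from Cont was 1.52 ± 1.11 in Drago, 0.77 ± 1.11 in −Drago and 0.15 ± 1.11 in −Salam.

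Tcf3, the gene of the E proteins E12 and E47, was read by 3 probe sets of tcf3.L and 1 of tcf3.S. In S1_at of tcf3.L Drago stood at -0.67, -1.8 and -0.14 and Salam at 0.57, 0.091 and 0.57, so that all Drago arrays lay below all Salam arrays, with a difference of -1.28 ± 0.58 (adjusted p = 0.865). In S2_at the values were 0.57, -2.82 and 0.76 and 0.51, -1.8 and 0.17, in S1_a_at 0.99, -0.36 and -0.96 and -1.0, 2.21 and 1.35, and in tcf3.S -1.05, 1.54 and -0.068 and 0.068, -0.37 and -0.14, and these overlapped. Tcf4, the E protein E2-2, was read by 4 probe sets of tcf4.S. In S1_x_at both Cont arrays (-0.79 and -0.82) were the lowest of the 14, and −Drago (0.99, -0.10 and 1.89) exceeded them by 1.73 ± 0.69 (adjusted p = 0.959). In A1_at the same groups stood at 1.31 and -0.22 and -2.69, 0.73 and -0.096, and −Drago differed in mean from −Salam (0.11, 0.77 and 1.67) by -1.54 ± 0.88 with overlapping arrays (adjusted p = 0.958), or -0.54 without −Drago 1. These 2 probe sets correlated at -0.52, the lowest value among the members that share a symbol, and the remaining 2 ran from -1.42 to 2.08.

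Of the 10 proneural members, none had an unadjusted p under 0.05 in any comparison. The smallest was that of ascl2.S, which reads an achaete-scute factor. It stood at 1.16 and 1.27 in Cont, 1.82, 0.40 and 0.65 in Drago, -1.02, -0.16 and 2.55 in Salam, -0.49, -0.65 and -0.46 in −Drago, and -0.31, -0.89 and 0.16 in −Salam. All 3 −Drago and all 3 −Salam arrays lay below both Cont arrays, with differences of -1.75 ± 0.86 in −Drago (adjusted p = 0.999) and -1.57 ± 0.86 in −Salam (adjusted p = 0.938). The copy ascl2.L stood at -0.53 and 0.76 in Cont, 0.055, -0.055 and 0.16 in −Drago and -1.63, -0.32 and 0.42 in −Salam and correlated with it at -0.22. The neurogenin neurog2, the neurod factors neurod1, neurod4 and neurod6, and atoh7, which retinal ganglion cells need, were read by 8 members that ran from -2.71 to 2.11. The neural markers (17 probe sets of 11 of 13 listed genes) had array medians of 0.0011 to 0.015 in Cont, -0.31 to 0.28 in −Drago and -0.11 to 0.34 in −Salam, and their part in these values was not tested.

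Among the factors of mesoderm and blood, tal1.S, which blood and vessel precursors need, gave the largest difference of any member from Cont. Its A1_at probe set stood at 2.42 and 1.55 in Cont, 2.58, 0.94 and -1.1 in Drago, -1.45, -0.94 and -1.36 in Salam, -1.57, 1.52 and 2.32 in −Drago, and -0.99, 2.04 and -2.81 in −Salam. All 3 Salam arrays lay below both Cont arrays, with a difference of -3.24 ± 1.35 (adjusted p = 0.944, a fold of 9.42). In −Salam the difference was -2.57 ± 1.35 (adjusted p = 0.923), but −Salam 2 lay between the Cont arrays. The other probe set of tal1.S, S1_at, stayed between -0.70 and 0.59 on all 14 arrays, with -0.57, 0.17 and -0.10 in Salam against 0.092 and 0.0033 in Cont. The range of the former was 5.39 and that of the latter 1.29, the narrowest of the members, and they correlated at 0.052. Blood markers (11 probe sets of 7 of 10 listed genes) had array medians of -0.024 to 0.32 in Cont and -0.10 to 0.079 in Salam. Single blood markers differed from Cont in both directions in Salam. The probe set of slc4a1.L differed by -2.74 ± 1.34 (adjusted p = 0.98) and one of epb41.L by 1.3 ± 0.81 (adjusted p = 0.985). Vessel markers (4 probe sets of 4 of 8 genes) had array medians of -0.13 to -0.12 in Cont, -0.48 to -0.022 in Salam, -1.29 to -0.24 in −Salam and 0.12 to 1.69 in Drago. The part of blood and vessel markers in the tal1.S values was not tested. The hand genes, bHLH factors of the heart and of lateral mesoderm, were read by hand1.L, hand2.L and hand2.S, which ran from -2.48 to 2.69 with every unadjusted p above 0.05.

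Probe sets of the same gene could be compared for 16 genes of the members. Over the 14 arrays, the 32 pairs with the same symbol had a median Pearson r of 0.0036 (-0.52 to 0.56), and the 16 pairs of an L and an S copy one of -0.18 (-0.70 to 0.51). The 1782 pairs of members of different genes had a median of -0.0096, and the 2712 pairs of all probe sets on the array that share 1 symbol one of 0.0050. The highest value was that of 2 rbpj.S sets and the lowest that of neurog2.L with a neurog2.S set (-0.70). Such pairs share arrays, and the correlations are given as a description. A difference in one probe set of a gene, as for tal1.S, hes5.5.S, hes7.2.L and tcf4.S above, did not reach an unadjusted p under 0.05 in the other probe sets of that symbol in the same comparison.

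**Figure D4:**
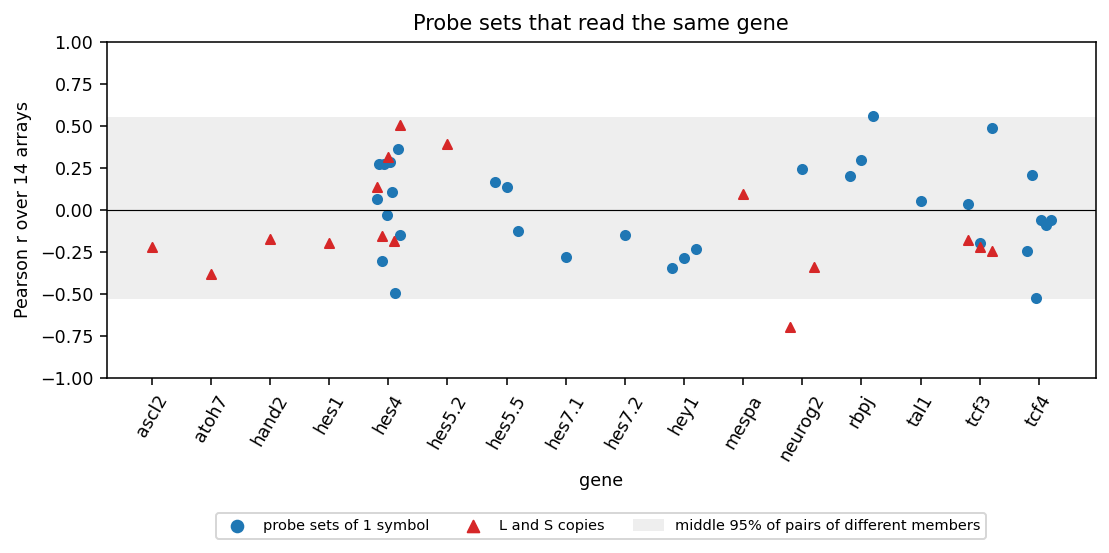
Pearson r over 14 arrays (vertical axis) between members that read the same gene (horizontal axis). Circles are pairs with 1 symbol, triangles pairs of an L and an S copy, and the grey band holds the middle 95% of the 1782 pairs of different genes, within which most of the points lie.

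The spread of the members between arrays was close to that of the other probe sets. Their SD within groups had a median of 1.05 over the members and 0.984 over all probe sets, and the SD of the 5 group means had a median of 0.508 and 0.548, so that the median ratio of the second to the first was 0.533 for the members and 0.574 for all. By role, the ratio was highest for the ligands (0.603) and lowest for the factors of mesoderm and blood (0.405). The highest group mean was in Drago for 17 of the 61 members (19.3% of all probe sets), in Cont for 14 (24.0%), in Salam for 14 (18.3%), in −Drago for 8 (18.3%) and in −Salam for 8 (20.1%). On single arrays, Drago 3 had the most members above 1, 17 of 61 against 13.2% of all probe sets, and Salam 3 the most below -1, 14 of 61 against 16.4%.

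The pathway beyond the members was followed in 4 lists chosen by role, of which 0 probe sets were called in any of the 8 comparisons. Other Notch components, such as cofactors and enzymes that process receptor and ligand, had 42 probe sets of 24 of the 51 listed genes. Over 5 fold from Cont were 1 higher in Drago (2.03% of all probe sets) and 1 lower in −Drago (1.68%). There were 0 in Salam (1.93%) and 0 in −Salam (2.01%). The one in Drago, snw1.S, a nuclear cofactor of the cut receptor, stood at 0.24 and -2.61 in Cont and 0.66, 2.15 and 1.16 in Drago, a difference of 2.51 ± 1.08 (adjusted p = 0.85). The one in −Drago, the corepressor ncor1.S, stood at 2.65 and 1.23 in Cont and -0.67, -0.24 and -0.49 in −Drago, a difference of -2.4 ± 0.92 (adjusted p = 0.959). The medians of the list's differences from Cont were -0.16 for Drago, -0.035 for Salam, -0.053 for −Drago and -0.23 for −Salam. At an unadjusted p under 0.05 the list had 1 higher and 1 lower in Drago (5.65% of all probe sets) and 0 in Salam (5.0%). It had 1 lower in −Drago (4.94%) and 1 lower in −Salam (5.69%).

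Myogenic bHLH factors and their Id inhibitors (12 probe sets of 7 of 9 genes) had 1 probe set over 5 fold from Cont, in −Drago (1.68% of all probe sets). It was myog.S, myogenin, at -0.67 and -0.55 in Cont and 1.49, 3.02 and 1.75 in −Drago, a difference of 2.69 ± 1.11 (adjusted p = 0.959), and all −Drago arrays lay above both Cont arrays. For myog.S the other arrays stood at 0.22, 1.65 and -1.63 in Drago, -0.62, -0.44 and -0.22 in Salam, and 1.77, -2.01 and 2.15 in −Salam. The copy myog.L had means of -0.89 in Cont, 0.71 in Drago, 0.030 in −Drago and -0.94 in −Salam. The myogenic list had 1 lower at an unadjusted p under 0.05 in Drago (5.65% of all probe sets), 1 higher in −Drago (4.94%), 0 in Salam (5.0%) and 0 in −Salam (5.69%). The bHLH factors of other tissues had 3 probe sets of 3 of 24 listed genes, 1 of them over 5 fold lower, in −Salam (2.01% of all probe sets). Among them bhlhe40.L, a bHLH repressor of the circadian clock, stood at 0.90 and 2.1 in Cont, -0.051, 1.5 and -0.38 in Drago, 2.14, 1.44 and -0.16 in Salam, 0.56, -1.75 and 0.051 in −Drago, and -0.91, -2.26 and -1.32 in −Salam. All 3 −Salam arrays lay below both Cont arrays and below all Salam arrays, with a difference of -3.0 ± 0.88 from Cont (adjusted p = 0.641), while Salam exceeded −Salam by 2.64 ± 0.79 (adjusted p = 0.735).

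Partners of the segmentation clock were read by 23 probe sets of 14 of 22 listed genes. Over 5 fold from Cont were 1 higher and 1 lower in Drago (2.03% of all probe sets) and 1 higher in Salam (1.93%). There were 0 in −Drago (1.68%), and 2 higher and 1 lower in −Salam (2.01%). Those over 5 fold read cdx4.L, fgf8.L and aldh1a2.L. Of these cdx4.L, a homeobox factor of the posterior body, stood at -2.71 and -2.78 in Cont, 0.52, 0.24 and 0.12 in Drago, -0.42, 0.03 and 0.019 in Salam, 0.48, -2.38 and -2.02 in −Drago, and -0.019, -0.76 and 0.048 in −Salam. Both Cont arrays were the lowest of the 14, all Drago, Salam and −Salam arrays lay far above them, and −Drago 2 and 3 lay close to Cont. The differences from Cont were 3.04 ± 0.74 in Drago (adjusted p = 0.601), 2.62 ± 0.74 in Salam (adjusted p = 0.763) and 2.5 ± 0.74 in −Salam (adjusted p = 0.662). For fgf8.L, the growth factor whose gradient positions the somite boundary, S1_a_at stood at 1.23 and 0.78 in Cont and -2.53, -1.93 and -1.92 in −Salam, a difference of -3.13 ± 0.73 (adjusted p = 0.617). Its other probe set, S1_at, had Cont at 1.91 and 1.78 and Drago at -0.78, 0.44 and -1.44, a difference of -2.44 ± 0.87 (adjusted p = 0.808). Both Cont arrays were the highest of the 14 in S1_at. Salam stood there at 0.74, -0.16 and -0.031, −Drago at 0.031, -1.99 and 1.39, and −Salam at -0.082, 0.052 and -1.24. The retinoic acid enzyme aldh1a2.L stood above Cont in −Salam by 2.45 ± 0.81 in S1_at (adjusted p = 0.781) and below Cont in Salam, by -2.24 ± 0.80 as a signed difference, in A1_at (adjusted p = 0.862). The 2 probe sets differed in direction in both groups. In S1_at Salam stood at 1.31, -0.48 and 1.34 against -0.53 and -1.51 in Cont. In A1_at the mean of −Salam was 0.56 and that of Cont 1.15. At an unadjusted p under 0.05 the list had 1 higher and 1 lower in Drago (5.65% of all probe sets) and 2 higher and 1 lower in Salam (5.0%). In −Drago it had 1 higher and 2 lower (4.94%), and in −Salam 2 of each (5.69%). The list was chosen with earlier results of these data known, and no test of it as a set was run. Over the 23 probe sets the median difference from Cont was 0.016 for Drago, -0.27 for Salam, 0.0013 for −Drago and -0.16 for −Salam.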

How the data were processed

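The authors hybridized tail RNA of each sample to a Xenopus laevis genome array, read the scans with GCOS and computed MAS5 signals. The deposited values are log2 signals from which the authors' software took away the probe set's median over all samples, which keeps differences between arrays and loses the signal level, so that no filter on low signals, pseudocount or intensity trend could be applied. The 120 probe sets that read added control RNA, of 15611, took no part in the tests. All 14 arrays entered a single fit of the remaining 15491 in limma 3.58.1 (R 4.3.3), 1 mean for each group (9 residual and 5.53 prior degrees of freedom), with an F test, 8 comparisons and the interaction of predator and removal, each adjusted by Benjamini-Hochberg over all probe sets. The fit was run on simulated data with planted differences, and how many of those of 5 fold it called is not given here. The number of arrays limits the precision: the median SE of a difference from Cont was 0.860 over all probe sets.

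The members, the lists and the tests were chosen with earlier results of these data known. Symbols came from the platform annotation, which gives 1 for 9304 probe sets, several for 195 and none for 5992. Named members were those over 5 fold from Cont, the 4 with the smallest p in each comparison and in the F test, the genes named by the study (tcf12, and hes5.5, which the array's older annotation calls enhancer of split related 10), and every probe set of a core list of pathway and clock genes. Of other genes of the pathway, those over 5 fold or with the 2 smallest p of a list could be named. The alternatives were quantile normalization, centring of arrays, ratios of linear means, a replicate block, fits of only the compared groups, ordinary tests, leaving out probe sets that can match several transcripts, limits of 3 and 8 fold, and leaving out each array. A block by the poly-A control was added after its values were seen. The quantitative PCR and pathway analysis of the study were not analysed here.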

Additional observations from a re-analysis of the deposited data

How the results depend on the processing

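No member was called at an adjusted p under 0.05 in any comparison or in the F test under any alternative run, including each array left out in turn. The count of members over 5 fold from Cont, with all arrays 1 for Drago, 3 for Salam, 1 for −Drago and 1 for −Salam, depended on the setting. Under the alternatives, shares of all probe sets are given only for the limits of 3 and 8 fold. The counts under the other alternatives carry no statement on the members as a group. With the replicate block it was 2 in Drago, 2 in −Drago and 3 in −Salam. Same-numbered arrays of different groups had a mean correlation of deviations of -0.00015 (-0.019 to 0.016, 26 pairs), and differently numbered ones of 7.7e-05 (52 pairs). Arrays of the same group also correlated with a median r of only 0.0020. These values therefore cannot decide whether the numbers pair the arrays. The poly-A control as a block, chosen after seeing the data, gave 2 in −Drago and 3 in −Salam, quantile normalization 2 in −Drago, and ratios of linear means 2 in Drago and 0 in −Salam. A limit of 3 fold gave 6, 7, 6 and 9 members in Drago, Salam, −Drago and −Salam. In the same order, 10.01%, 9.45%, 9.39% and 10.02% of all probe sets passed this limit. A limit of 8 fold gave 0, 1, 0 and 0 members, and 0.374%, 0.342%, 0.226% and 0.323% of all probe sets passed it. With 1 array left out the counts ran from 1 to 4 in Drago (4 without Drago 3, 3 without Cont 1, 2 without Cont 2), 3 to 6 in Salam (6 without Salam 3, 5 without Cont 2), 1 to 4 in −Drago (4 without Cont 1, 3 without −Drago 3, 2 without −Drago 2) and 1 to 5 in −Salam (5 without Cont 2, 4 without −Salam 2, 3 without Cont 1 or −Salam 1). Of the 244 differences of members from Cont, 39 changed sign and moved by more than 1 SE when 1 array was left out, 36 of them with a Cont array. Among the members with differences given above, these were the A1_at set of rbpj.S, which ran from -1.11 to 1.67 (all arrays 0.28) in −Drago and from -0.019 to 2.77 (all arrays 1.37) in Salam, and tcf12.L, which ran from -0.46 to 2.0 (all arrays 0.77) in −Drago and from -1.08 to 1.38 (all arrays 0.15) in −Salam. The A1_at set of hes5.5.S ran from -1.24 to 0.62 (all arrays -0.58) in Drago, S1_at ran from -1.48 to 0.89 (all arrays -0.30) in −Drago and from -0.72 to 1.64 (all arrays 0.46) in Drago, and S1_x_at ran from -2.57 to 0.40 (all arrays -1.08) in −Drago, from -1.4 to 1.57 (all arrays 0.081) in −Salam and from -1.7 to 1.28 (all arrays -0.21) in Drago. Without 1 array, further differences shrank by over 1.5 times without a change of sign, among them those that follow. Against Cont they became 0.91 for dll1.L in Salam (without Cont 2), -1.33 for hes1.L in Salam (Salam 1) and -0.21 for hes1.L in Drago (Drago 1). They became 0.29 for tcf12.L in Drago (Cont 2), -0.012 for hes5.10.L in −Drago (Cont 2) and -1.46 for A1_at of tal1.S in −Salam (−Salam 3). For rbpj.S they became 0.0014 for A1_at in −Salam (Cont 1), and for A1_s_at 1.22 in Drago (Drago 1) and 0.00067 in −Drago (−Drago 1). In Drago against Salam they became 1.46 for A1_s_at of rbpj.S (Drago 1) and -0.82 for S1_at of tcf3.L (Drago 2). The other hes7.2.L set became -1.19 in −Drago against −Salam (−Drago 2). The cause was not tested. With each array left out, the difference of dll1.L from Cont ran from 1.8 to 2.79 (all arrays 2.29) in −Drago and from 1.8 to 2.78 (all arrays 2.29) in −Salam. Its sign could not change, since all arrays of these groups lay above both Cont arrays. The sign was also kept by others, such as hes1.L in −Drago (-2.96 to -2.58), mespa.L in Drago (-3.3 to -2.51) and A1_at of tal1.S in Salam (-3.67 to -2.8). No setting other than leaving out an array changed the sign of a named member's difference with a move of more than 1 SE. Genes beyond the members, such as cdx4.L, fgf8.L and bhlhe40.L, were not followed under the alternatives.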
